A study of Arabidopsis thaliana with 36 samples.

Results

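Genes by which the Arabidopsis root takes up iron were followed through a time course of auxin treatment. The set comprised 10 genes picked by locus identifier: IRT1, FRO2, FIT, bHLH38, bHLH39, bHLH100, bHLH101, F6'H1, ABCG37 and MYB72. All 10 were among the 32678 genes of the count files, and all 10 passed the filter on low counts that left 20939 genes for testing. Root sections of Col-0 seedlings were sequenced in 2 genotypes, CASP1::shy2-2/slr-1 and slr-1, each after 2, 4, 8, 16 or 24 h on plates with 10 µM NAA, a synthetic auxin, and untreated (0 h). Seedlings grew on solid Murashige-Skoog medium in continuous light, were moved at 6 days and were 7 days old at harvest in every group. Sections lacked the tip (about 3 mm), hypocotyl and shoot. With 3 libraries per group the 12 groups made 36 libraries. Every group carried slr-1, a dominant allele of the Aux/IAA repressor gene IAA14 whose product resists auxin-induced degradation, and which is known for roots without lateral roots. CASP1::shy2-2/slr-1 in addition expressed shy2-2, a stabilised form of the repressor IAA3, from the CASP1 promoter, which is active in differentiating endodermis. Whether 1 or several transgenic lines were used, and whether libraries of a group came from separate cultures, is not given in the sources used here, so p-values measure the spread between these libraries, which may be technical. The series asks how differentiated endodermal cells respond to auxin in their transcripts.

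Arabidopsis acquires iron by reduction. The ferric reductase FRO2 reduces ferric iron at the root surface, and the transporter IRT1, located mainly in the epidermis, carries ferrous iron (and other divalent metals) into the cell. Both are targets of the bHLH factor FIT, which acts as a dimer with a bHLH factor of subgroup Ib: bHLH38, bHLH39, bHLH100 or bHLH101. F6'H1 makes the precursor of scopoletin and related coumarins, ABCG37 (PDR9) exports such coumarins to the rhizosphere, where they mobilise iron, and MYB72 is a regulator of this branch that itself depends on FIT. In iron deficiency all of these transcripts are known to increase.

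In the RefSeq annotation of TAIR10.1, IRT1 (AT4G19690) lies at chr4:10707344-10709015 on the plus strand and FRO2 (AT1G01580) at chr1:208995-213082, also plus. FIT (AT2G28160) lies at chr2:12004658-12006276, plus. The subgroup Ib genes bHLH38 (AT3G56970, chr3:21084035-21085245) and bHLH39 (AT3G56980, chr3:21086390-21087710) are neighbours on the minus strand. bHLH100 (AT2G41240) lies at chr2:17198037-17199454 and bHLH101 (AT5G04150) at chr5:1138410-1139633, both minus. F6'H1 (AT3G13610) lies at chr3:4449259-4450811, ABCG37 (AT3G53480) at chr3:19825267-19831880 and MYB72 (AT1G56160) at chr1:21022384-21023587, all plus. All 10 are protein-coding. The exons of bHLH38 and bHLH39 share no identical run longer than 34 bases, those of bHLH39 and bHLH100 none longer than 32 and those of IRT1 and its paralog IRT2 none longer than 22. Genes on the opposite strand overlap MYB72 by 829 bases (AT1G56165), bHLH38 by 386, bHLH101 by 79 and F6'H1 by 67. Whether reads were counted by strand is not given in the sources used here, so for these 4 genes reads of the partner cannot be told apart.

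The 250 bases before the annotated start of 5 members are printed: the subgroup Ib factors bHLH38, bHLH39 and bHLH100, and IRT1 and FRO2, whose time courses differed from that of bHLH39. They are RefSeq sequence of TAIR10.1, 5′ to 3′ on the strand of the gene, at chr3:21085246-21085495 (minus) for bHLH38, chr3:21087711-21087960 (minus) for bHLH39, chr2:17199455-17199704 (minus) for bHLH100, chr4:10707094-10707343 (plus) for IRT1 and chr1:208745-208994 (plus) for FRO2. Capitals mark the E-box core CANNTG, the hexamer that bHLH factors are known to bind.
bHLH38: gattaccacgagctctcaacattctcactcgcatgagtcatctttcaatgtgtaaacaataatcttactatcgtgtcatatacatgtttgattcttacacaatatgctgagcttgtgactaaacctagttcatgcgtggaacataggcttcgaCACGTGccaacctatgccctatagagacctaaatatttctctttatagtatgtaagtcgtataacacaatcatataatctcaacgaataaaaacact
bHLH39: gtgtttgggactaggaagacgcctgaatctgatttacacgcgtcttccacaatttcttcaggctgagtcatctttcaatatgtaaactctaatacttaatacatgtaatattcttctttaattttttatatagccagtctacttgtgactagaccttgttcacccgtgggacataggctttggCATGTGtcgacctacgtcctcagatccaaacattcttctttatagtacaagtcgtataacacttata
bHLH100: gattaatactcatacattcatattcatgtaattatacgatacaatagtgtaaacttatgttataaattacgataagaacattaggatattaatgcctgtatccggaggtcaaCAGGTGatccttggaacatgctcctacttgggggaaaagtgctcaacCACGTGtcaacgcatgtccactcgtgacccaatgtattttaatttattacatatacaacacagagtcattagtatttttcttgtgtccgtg
IRT1: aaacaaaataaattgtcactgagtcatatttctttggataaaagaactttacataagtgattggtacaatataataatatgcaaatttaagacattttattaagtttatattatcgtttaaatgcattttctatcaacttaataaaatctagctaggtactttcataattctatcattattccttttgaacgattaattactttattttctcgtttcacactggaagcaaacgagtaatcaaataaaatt
FRO2: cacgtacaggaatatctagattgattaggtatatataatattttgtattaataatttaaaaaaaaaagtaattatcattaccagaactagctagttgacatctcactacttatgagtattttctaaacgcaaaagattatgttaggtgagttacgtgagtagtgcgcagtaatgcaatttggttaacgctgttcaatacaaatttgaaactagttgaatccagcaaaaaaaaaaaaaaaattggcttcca
In bHLH38 the E-box is CACGTG, the palindrome known as the G-box, with its first base 97 bases before the start. The E-box of bHLH39 is CATGTG, at 67 bases, and bHLH100 has CAGGTG at 138 bases and CACGTG at 91 bases. IRT1, FRO2, bHLH101 and MYB72 hold no CANNTG in this window. The time course of bHLH100 was more like that of IRT1 than that of bHLH39, and bHLH101 is a subgroup Ib gene. Among the other members FIT, F6'H1 and ABCG37 hold 1, 3 and 1. Of the 27443 promoters of this length in the annotation, 55.3% hold CANNTG and 6.49% hold CACGTG, both searched on both strands, and every CACGTG is also a CANNTG. The auxin response element TGTCTC, held by 10.95% of promoters, was found only in bHLH101 among the 10 members, on the reverse strand 26 bases before the start, and its variant TGTCGG (4.16% of promoters) in none. The windows of bHLH38 and bHLH39 share the run tgagtcatctttcaat of 16 bases. These are matches of letters and say nothing of binding.

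Libraries held 28.1 to 49 M reads in genes (median 39.3), so counts of the abundant members were large: IRT1 had between 807 and 57887 reads in a library. Values are given as CPM, read counts scaled to the size of each library, after TMM scaling with a factor per library between 0.939 and 1.07. Each gene was tested with edgeR's quasi-likelihood F-test, p-values were adjusted by the Benjamini-Hochberg method over the 20939 genes, and a gene is called changed under 0.05. Log2 fold changes are NAA over untreated of the same genotype, or CASP1::shy2-2/slr-1 over slr-1. All 5 times of a genotype share the same 3 untreated libraries. Several libraries stood apart in iron uptake genes. Untreated replicate 2 of CASP1::shy2-2/slr-1 and untreated replicate 3 of slr-1 had member sums of 2439 and 2966 CPM, against 1377 to 1577 and 1605 to 1806 CPM in the other two libraries of their groups. The same 2 libraries had the highest sums of the 7 endodermis markers among untreated libraries of their genotype, 155 CPM in CASP1::shy2-2/slr-1 (others 94.1 and 106) and 140.4 CPM in slr-1 (others 38.3 and 52.1). Root hair and epidermis markers, 10 genes, summed to 26.4 CPM in untreated replicate 3 of slr-1 and to 5.95 and 6.24 CPM in the other two. Untreated replicate 2 of CASP1::shy2-2/slr-1 was the lowest of its group at 8.97 CPM (12.3 and 16.7 in the others). The part of either marker list in the values of the iron uptake genes was not tested. In the labels the library codes end in n or x in some libraries and in no letter in others, and what the letter stands for is not given. The letter n or x stood on all libraries of 2 h, on some of 4, 8 and 16 h and on none of 0 and 24 h, so at 2 h the letter and the treatment cannot be told apart. Endodermis markers were present in untreated root sections. Under NAA all 7 were lower at 24 h in both genotypes, beside 21.1% of all genes in CASP1::shy2-2/slr-1 and 26.8% in slr-1. CASP1 itself fell by 5.98 on the log2 scale in CASP1::shy2-2/slr-1 and by 5.43 in slr-1. Of 2 cortex markers only PEP could be tested, at 3.83 CPM or less for both together. PEP was higher at 16 h in both genotypes, at 2.35 in CASP1::shy2-2/slr-1 and 2.90 in slr-1 on the log2 scale, and lower at 4 h in CASP1::shy2-2/slr-1, at -3.36. That fall lies near the limit of detection: both cortex markers together had 0.025 to 0.075 CPM at 4 h in CASP1::shy2-2/slr-1. Untreated replicate 2 lay within this range at 0.0613 CPM, with the other untreated libraries at 0.419 and 1.07 CPM. The 6 shoot and photosynthesis markers summed to 65.7 to 367 CPM. In CASP1::shy2-2/slr-1 2, 4, 1, 0 and 0 of them were lower at the 5 times, beside 15.4, 11.9, 7.15, 13.9 and 21.1% of all genes. In slr-1 4, 5, 0, 3 and 0 were lower, beside 22.5, 21.8, 17.8, 22.5 and 26.8%. None was higher, beside 7.79 to 21.6% of all genes in CASP1::shy2-2/slr-1 and 17.9 to 23.3% in slr-1. The part of these marker changes in the values of the iron uptake genes was not tested. In root sections, fewer cells of a type and less RNA per cell cannot be told apart.

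Over the 5 times together, all 10 members changed with NAA in CASP1::shy2-2/slr-1 and 8 of 10 in slr-1 (test with 5 degrees of freedom), where 73 and 81.4% of all tested genes were called. F6'H1 and bHLH100 were the 2 members not called in slr-1 (edgeR adjusted p = 0.156 and 0.06). By time, CASP1::shy2-2/slr-1 had 3, 3, 7, 5 and 0 of the 10 members higher than untreated at 2, 4, 8, 16 and 24 h, beside 15.7, 10.6, 7.79, 15.8 and 21.6% of all tested genes higher. At 8 h this was 7 of 10 members against a background share of 7.79%. Of these 7 calls 3 held without any 1 library, and the count was 3 without untreated replicate 1 and 8 without untreated replicate 2. Summed over the 5 times, the 18 calls higher became 9 without untreated replicate 1, 11 without untreated replicate 3 and 28 without untreated replicate 2. Members called lower in CASP1::shy2-2/slr-1 numbered 0 up to 16 h and 1 at 24 h, beside 15.4, 11.9, 7.15, 13.9 and 21.1% of all genes. The counts of 0 lower members went with 0, 3, 0 and 0 at an unadjusted p under 0.05, and DESeq2 called 0, 3, 0 and 0. The count of 0 higher at 24 h went with 1 at an unadjusted p under 0.05 and 1 by DESeq2. In slr-1, 3, 3, 3, 4 and 3 members were higher at the 5 times, beside 20.3, 20.3, 17.9, 22.4 and 23.3% of all genes, and 1, 4, 0, 1 and 5 were lower, beside 22.5, 21.8, 17.8, 22.5 and 26.8%. The 0 lower at 8 h went with 2 at an unadjusted p under 0.05 and 2 by DESeq2. The median log2 change over the 10 members was 0.46, 0.05, 1.48, 1.51 and -0.69 in CASP1::shy2-2/slr-1 and -0.12, -0.09, -0.01, 0.34 and -0.95 in slr-1, where the median over all tested genes stayed within 0.05 of 0.

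**Figure D1:**
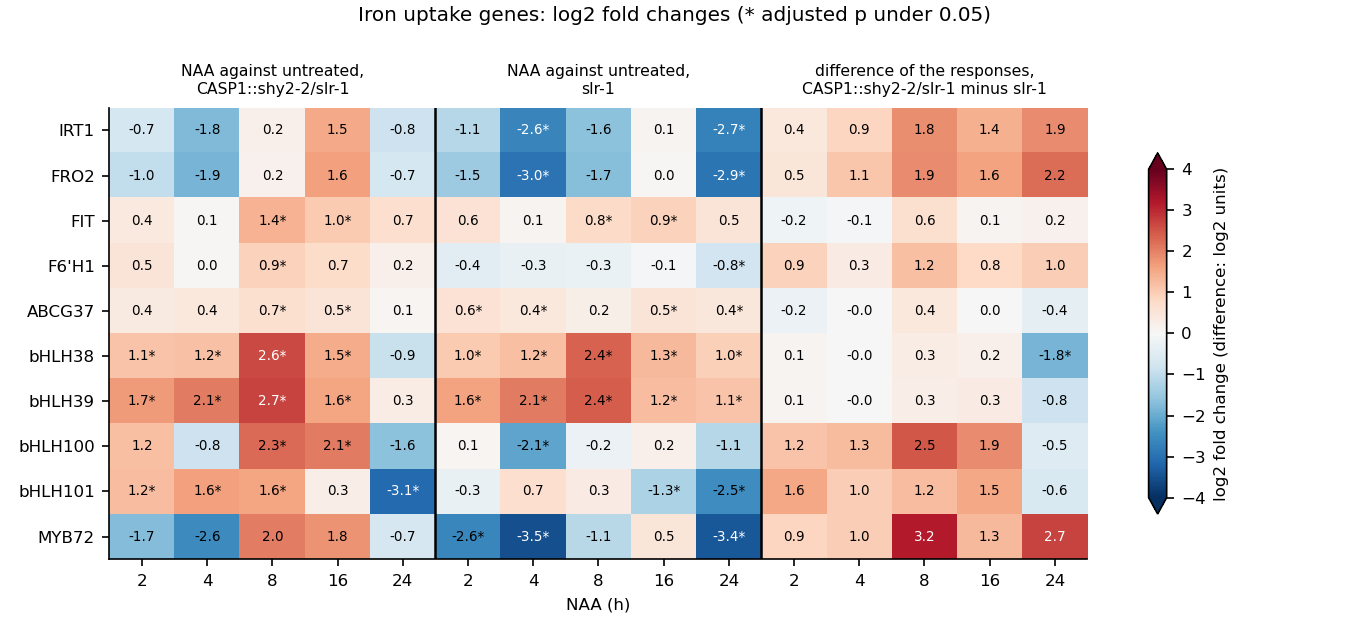
Log2 fold change (colour, scale ending at 4 in either direction) of the 10 members by hours of NAA, against untreated in CASP1::shy2-2/slr-1 (left), against untreated in slr-1 (middle) and the difference between the 2 responses (right), with an asterisk where called. The rows of bHLH38 and bHLH39 are red at 2 to 16 h in both genotypes, IRT1, FRO2 and MYB72 are blue at 4 h in both, and 1 cell of the right panel is called, bHLH38 at 24 h.

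Of the factors, bHLH39 gave the steadiest response: its transcript rose within 2 h of NAA and peaked at 8 h in both genotypes. In CASP1::shy2-2/slr-1 the 3 libraries had 26.7, 81.4 and 24.0 CPM at 0 h, 123, 205 and 107 at 2 h, 179, 196 and 187 at 4 h, 295, 294 and 264 at 8 h, 113, 130.1 and 152 at 16 h and 50.7, 56.9 and 55.4 at 24 h. In slr-1 they had 27.7, 26.5 and 45.5 CPM at 0 h, 113, 95.5 and 92.6 at 2 h, 138, 138 and 148 at 4 h, 160.6, 162.4 and 209 at 8 h, 68.5, 83 and 84.2 at 16 h and 83.2, 70.7 and 65.4 at 24 h. Every NAA library from 2 to 16 h lay above every untreated library of its genotype, and at 24 h this still held in slr-1 but not in CASP1::shy2-2/slr-1. At 8 h the log2 change was 2.69 ± 0.31 (SE, edgeR adjusted p = 5.98e-07) in CASP1::shy2-2/slr-1 and 2.41 ± 0.30 (SE, edgeR adjusted p = 1.27e-06) in slr-1, that is 6.44-fold and 5.33-fold. At 2 h it was already 1.72 ± 0.30 (SE, edgeR adjusted p = 8.83e-05) in CASP1::shy2-2/slr-1 and 1.59 ± 0.30 (SE, edgeR adjusted p = 0.00011) in slr-1. By 24 h the value was 0.30 ± 0.29 (SE, edgeR adjusted p = 0.421) in CASP1::shy2-2/slr-1, not called, and 1.14 ± 0.29 (SE, edgeR adjusted p = 0.00232) in slr-1. All 9 called responses stayed called whichever of the 36 libraries was left out. Without untreated replicate 2, which was high, the CASP1::shy2-2/slr-1 values became 2.38 at 16 h and 1.10 at 24 h (edgeR adjusted p = 0.000317), so the missing call at 24 h rests on that library.

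Its neighbour bHLH38 followed nearly the same course, with a peak at 8 h in both genotypes. CPM in CASP1::shy2-2/slr-1 were 14.9, 47.1 and 15.5 at 0 h, 41.3, 96.4 and 34.6 at 2 h, 51.1, 64.2 and 60.7 at 4 h, 169, 171 and 143 at 8 h, 69.8, 73.1 and 76.6 at 16 h and 9.44, 15.4 and 17 at 24 h. CPM in slr-1 were 13.5, 11.7 and 22.4 at 0 h, 36.3, 31.7 and 29.7 at 2 h, 32.2, 29.8 and 48.1 at 4 h, 67.8, 67.5 and 108 at 8 h, 37.0, 51.1 and 30.1 at 16 h and 44.5, 24.9 and 23.2 at 24 h. The 8 h libraries all lay above the untreated ones of their genotype, with a log2 change of 2.64 ± 0.40 (SE, edgeR adjusted p = 3.09e-05) in CASP1::shy2-2/slr-1 and 2.36 ± 0.40 (SE, edgeR adjusted p = 6.13e-05) in slr-1. At 16 h bHLH38 remained higher, by 1.5 and 1.31 on the log2 scale in CASP1::shy2-2/slr-1 and slr-1 (edgeR adjusted p = 0.0043 and 0.00778), and the 8 and 16 h calls held without any 1 library. Without untreated replicate 2 the 16 h value in CASP1::shy2-2/slr-1 was 2.27. The calls at 2 and 4 h were weaker. At 2 h the value was 1.15 ± 0.38 (SE, edgeR adjusted p = 0.0224) in CASP1::shy2-2/slr-1, lost without untreated replicate 1 (0.87), untreated replicate 3 (0.88) or 2 h replicate 2 (0.56), and 1.93 without untreated replicate 2. In slr-1 it was 1.04 ± 0.39 (SE, edgeR adjusted p = 0.0314), lost without untreated replicate 1 (0.92), untreated replicate 2 (0.85), 2 h replicate 1 (0.94) or 2 h replicate 2 (1.04). At 4 h it was 1.18 ± 0.38 (SE, edgeR adjusted p = 0.0257) in CASP1::shy2-2/slr-1, lost without untreated replicate 1 (0.92), untreated replicate 3 (0.94), 4 h replicate 2 (1.13) or 4 h replicate 3 (1.15) and 1.96 without untreated replicate 2. The 4 h value in slr-1 was 1.21 ± 0.39 (SE, edgeR adjusted p = 0.0135), lost without untreated replicate 1 (1.11), untreated replicate 2 (1.04) or 4 h replicate 3 (0.96). At 24 h the genotypes parted: CASP1::shy2-2/slr-1 was at -0.89 ± 0.39 (SE, edgeR adjusted p = 0.063) relative to untreated, not called, and slr-1 was higher at 0.96 ± 0.38 (SE, edgeR adjusted p = 0.0395). The slr-1 call was lost without untreated replicate 1 (0.86), untreated replicate 2 (0.79) or 24 h replicate 1 (0.62).

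bHLH101 rose at 2 to 8 h in CASP1::shy2-2/slr-1 and had fallen to under 3 CPM by 24 h in both genotypes. In CASP1::shy2-2/slr-1 it had 9.20, 16.9 and 12.3 CPM at 0 h, 33.2, 15.9 and 42.1 at 2 h, 28.0, 50.6 and 42.1 at 4 h, 44.7, 37.1 and 32.4 at 8 h, 7.32, 8.03 and 31.4 at 16 h and 1.21, 1.28 and 1.96 at 24 h. In slr-1 it had 10.8, 10.11 and 11 CPM at 0 h, 7.08, 7.69 and 11.1 at 2 h, 10.4, 12.9 and 27.2 at 4 h, 11.3, 14.4 and 14.8 at 8 h, 3.30, 3.22 and 6.81 at 16 h and 2.70, 1.5 and 1.51 at 24 h. All NAA libraries of 24 h lay below all untreated ones of their genotype, which was not so for bHLH38 or bHLH39. The fall at 24 h was -3.11 ± 0.51 (SE, edgeR adjusted p = 2.87e-05) in CASP1::shy2-2/slr-1 and -2.49 ± 0.49 (SE, edgeR adjusted p = 0.000179) in slr-1, and both held without any 1 library. The rise in CASP1::shy2-2/slr-1 was 1.65 ± 0.43 (SE, edgeR adjusted p = 0.0071) at 4 h, which also held. It was 1.24 at 2 h (edgeR adjusted p = 0.0295), lost without untreated replicate 1 (1.06), untreated replicate 3 (1.21), 2 h replicate 1 (1.18) or 2 h replicate 3 (0.93). At 8 h it was 1.57 (edgeR adjusted p = 0.0135), lost without untreated replicate 1 (1.39), untreated replicate 3 (1.55) or 8 h replicate 1 (1.45). In slr-1 the value at 2 h was -0.31 ± 0.44 (SE, edgeR adjusted p = 0.6) and that at 8 h 0.34 ± 0.44 (SE, edgeR adjusted p = 0.571), neither called. At 16 h slr-1 fell by 1.26 (edgeR adjusted p = 0.0266), a call lost without untreated replicate 1 (-1.26), 16 h replicate 1 (-1.09) or 16 h replicate 2 (-1.08).

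The fourth subgroup Ib gene, bHLH100, was scarce. It had 1.83, 12.7 and 1.45 CPM at 0 h in CASP1::shy2-2/slr-1, 6.20, 23.9 and 7.73 at 2 h, 1.33, 3.17 and 4.69 at 4 h, 29.8, 29.8 and 18.3 at 8 h, 23.9, 21.1 and 23.9 at 16 h and 1.00, 1.44 and 2.77 at 24 h. In slr-1 the values were 5.30, 4.45 and 10.3 at 0 h, 8.87, 5.92 and 6.21 at 2 h, 0.260, 0.488 and 3.91 at 4 h, 5.16, 3.48 and 8.58 at 8 h, 9.24, 6.99 and 6.69 at 16 h and 5.0, 2.52 and 1.71 at 24 h. The group mean at 4 h lay below those at 2 and 8 h in both genotypes. The rise in CASP1::shy2-2/slr-1 was 2.26 ± 0.69 (SE, edgeR adjusted p = 0.0252) at 8 h and 2.08 ± 0.68 (SE, edgeR adjusted p = 0.0226) at 16 h, with untreated replicate 2 far above the other two. The 8 h call was lost without untreated replicate 1 (1.86), untreated replicate 3 (1.83), 8 h replicate 1 (2.16) or 8 h replicate 2 (2.16). The 16 h call was lost without untreated replicate 1 (1.69), untreated replicate 3 (1.66) or 16 h replicate 1 (2.07). Without untreated replicate 2 the values were 3.97 and 3.81. In slr-1 it fell at 4 h by 2.1 (edgeR adjusted p = 0.028), lost without untreated replicate 3 (-1.63), 4 h replicate 1 (-1.58) or 4 h replicate 2 (-1.67), and the value was -4.16 without 4 h replicate 3.

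FIT, the partner of these factors, was called higher at 8 and 16 h in both genotypes. Libraries of CASP1::shy2-2/slr-1 had 42.9, 94.0 and 49.8 CPM at 0 h, 91.8, 101 and 54.5 at 2 h, 63.8, 62.5 and 68.0 at 4 h, 199, 194 and 97.3 at 8 h, 132, 143 and 108 at 16 h and 102, 98.1 and 96.4 at 24 h. In slr-1 it had 58.3, 54.6 and 109 CPM at 0 h, 127, 106 and 96.9 at 2 h, 81.8, 64.7 and 92.5 at 4 h, 114, 106 and 156 at 8 h, 158, 143 and 117 at 16 h and 92.0, 110.4 and 113 at 24 h. The 8 and 16 h libraries lay above the untreated ones in CASP1::shy2-2/slr-1, while in slr-1 the highest untreated library (109 CPM) reached into the 8 h group. The log2 change in CASP1::shy2-2/slr-1 was 1.39 ± 0.28 (SE, edgeR adjusted p = 0.00107) at 8 h and 1.04 ± 0.28 (SE, edgeR adjusted p = 0.00671) at 16 h, and both held without any 1 library. In slr-1 it was 0.76 ± 0.28 (SE, edgeR adjusted p = 0.0355) at 8 h, lost without untreated replicate 1 (0.61), untreated replicate 2 (0.58) or 8 h replicate 3 (0.55) and 1.14 without untreated replicate 3. At 16 h in slr-1 it was 0.92 ± 0.28 (SE, edgeR adjusted p = 0.00987), lost without untreated replicate 1 (0.76) or untreated replicate 2 (0.73). With libraries of no letter alone, the 8 h value in CASP1::shy2-2/slr-1, which then rests on replicate 3, was 0.64 (edgeR adjusted p = 0.326).

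**Figure D2:**
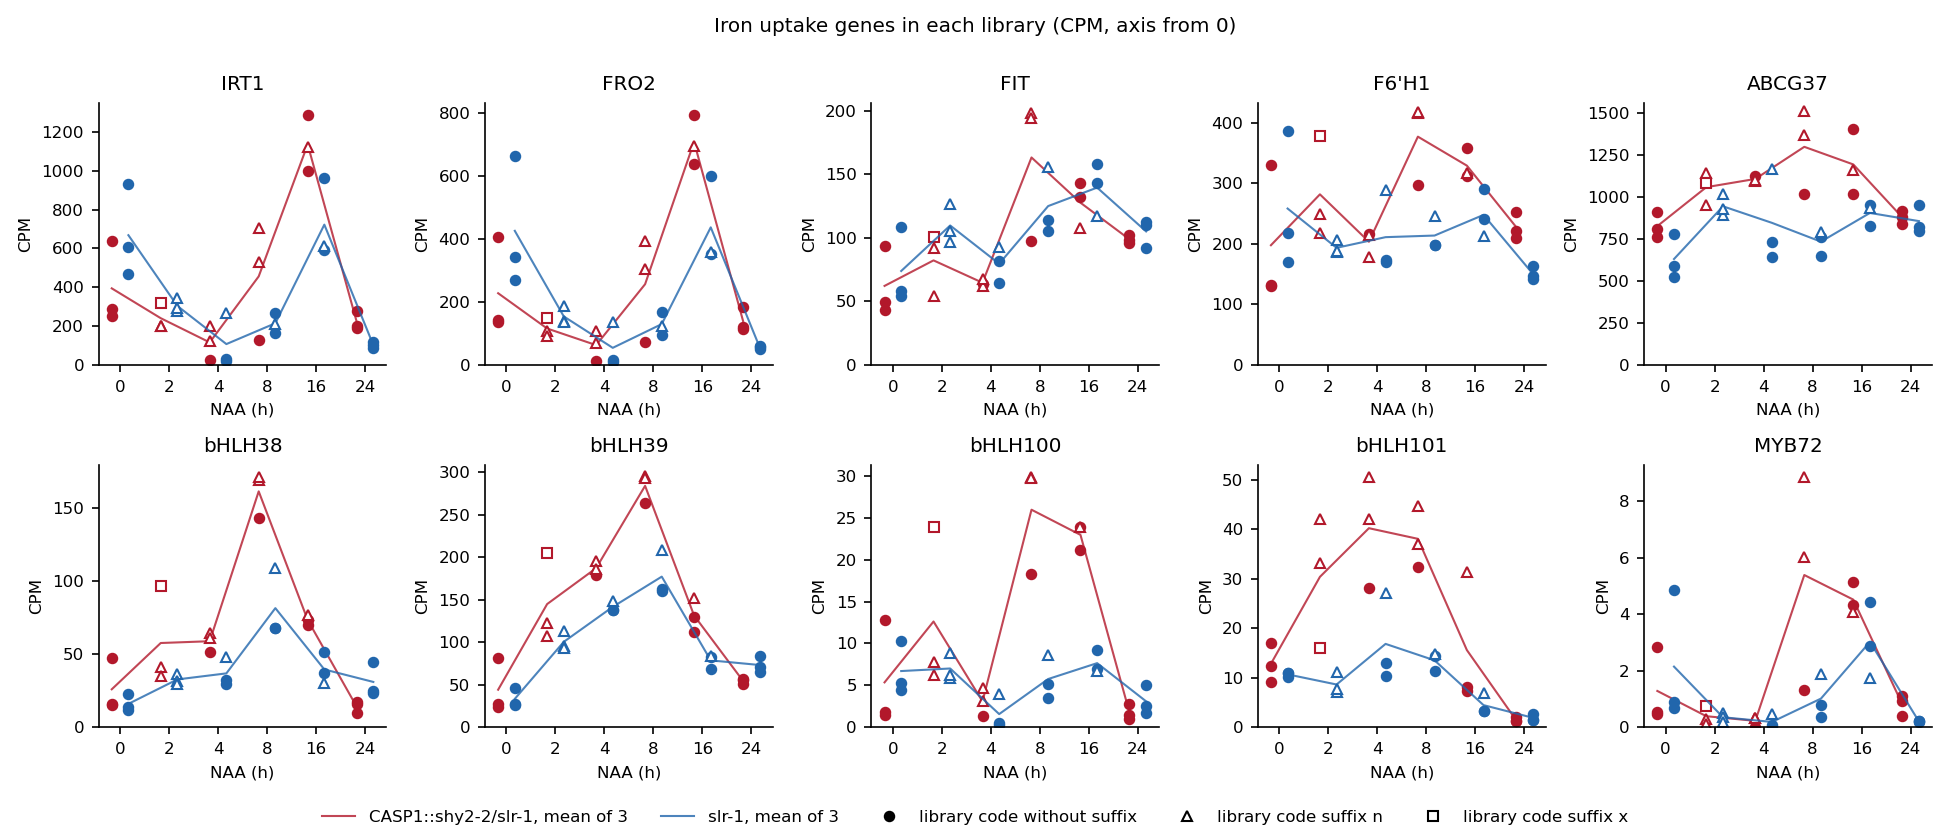
CPM (vertical axis from 0, a scale per gene) of the 10 members by hours of NAA (horizontal axis), with CASP1::shy2-2/slr-1 in red and slr-1 in blue, 1 marker per library (filled circle for no letter in the library code, open triangle for n, open square for x) and a line through the mean of the 3 libraries. IRT1 and FRO2 are low at 4 h and 24 h and high at 16 h, whereas bHLH38 and bHLH39 peak at 8 h, where bHLH39 reaches 264 to 295 CPM in CASP1::shy2-2/slr-1 and 160.6 to 209 CPM in slr-1.

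The uptake machinery itself did not follow bHLH39. IRT1, the iron transporter, had 254, 639.5 and 290.1 CPM at 0 h in CASP1::shy2-2/slr-1, 201, 320.3 and 201 at 2 h, 27.6, 121 and 199.9 at 4 h, 707, 532 and 129 at 8 h, 1000.1, 1287 and 1120.5 at 16 h and 191, 199.5 and 278 at 24 h. In slr-1 it had 606, 467 and 933 CPM at 0 h, 344, 276 and 292 at 2 h, 31.6, 21.9 and 269.5 at 4 h, 266, 167 and 211 at 8 h, 962, 594 and 612 at 16 h and 88.9, 101 and 118 at 24 h. The lowest values came at 4 h and, in slr-1, again at 24 h, with a return at 16 h to 1000.1 CPM or more in CASP1::shy2-2/slr-1 and to the untreated range and just above it in slr-1. In slr-1 IRT1 fell by 2.63 ± 0.69 (SE, edgeR adjusted p = 0.00339) at 4 h and by 2.71 ± 0.69 (SE, edgeR adjusted p = 0.00211) at 24 h, all 3 NAA libraries below all 3 untreated ones. Both calls held without any 1 library, and without 4 h replicate 3 the value was -4.65. The values in CASP1::shy2-2/slr-1 were -1.76 ± 0.67 (SE, edgeR adjusted p = 0.0571) at 4 h, 1.52 ± 0.66 (SE, edgeR adjusted p = 0.0826) at 16 h and -0.82 ± 0.65 (SE, edgeR adjusted p = 0.321) at 24 h, none called. Without untreated replicate 2 the 16 h value in CASP1::shy2-2/slr-1 was 2.06 (edgeR adjusted p = 0.0496), and without slr-1 4 h replicate 3 the 4 h value in CASP1::shy2-2/slr-1 was -1.74 (edgeR adjusted p = 0.0134). Some root hair and epidermis markers were lower at 4 and 24 h, and some also at 2, 8 and 16 h. At 4 h the summed level of the 10 markers was 4.43 to 6.49 CPM against 8.97 to 16.7 CPM untreated in CASP1::shy2-2/slr-1, and 4.28 to 4.87 CPM against 5.95 to 26.4 CPM untreated in slr-1. Of the 10 markers, 1, 2, 1, 4 and 5 were lower at the 5 times in CASP1::shy2-2/slr-1 and 2, 6, 7, 4 and 5 in slr-1, beside 7.15 to 21.1% and 17.8 to 26.8% of all genes, with a median log2 change at 4 and 24 h of -1.50 and -2.27 in CASP1::shy2-2/slr-1 and -2.26 and -1.96 in slr-1. At 16 h, when IRT1 was high, 4 of these markers were lower in either genotype, and 1 was higher at 24 h. Their part in the values of IRT1, FRO2 and MYB72 was not tested. The spread within the 4 h groups went with the letter in the library code: libraries with no letter had 27.6 CPM in CASP1::shy2-2/slr-1 and 21.9 to 31.6 CPM in slr-1, and those with n had 121 to 199.9 CPM in CASP1::shy2-2/slr-1 and 269.5 CPM in slr-1. At 8 h in CASP1::shy2-2/slr-1 the 1 library with no letter was again lower, at 129 CPM with no letter and 532 to 707 CPM with n. This was not so elsewhere: the library with n lay between those with no letter at 8 h in slr-1 (211 CPM, others 167 and 266), at 16 h in CASP1::shy2-2/slr-1 (1120.5 CPM, others 1000.1 and 1287) and at 16 h in slr-1 (612 CPM, others 594 and 962). With libraries of no letter alone IRT1 was at -3.83 at 4 h in CASP1::shy2-2/slr-1, where only 1 library, 4 h replicate 1, was left. At 16 h in that genotype it was at 1.54 (edgeR adjusted p = 0.00454). In slr-1 it was then at -4.65 (edgeR adjusted p = 2.53e-06) at 4 h and -1.64 (edgeR adjusted p = 0.00619) at 8 h. With the letter n as a term in the model, the 2 h value in CASP1::shy2-2/slr-1 was -2.41 (edgeR adjusted p = 0.022) and that in slr-1 -2.59 (edgeR adjusted p = 0.00345). In that fit, without the x library, every 2 h library carried n and no untreated library did. The 2 h values thus rest on the effect of the letter at 4, 8 and 16 h and cannot tell letter from treatment.

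FRO2, the ferric reductase, had a course like that of IRT1. Libraries of CASP1::shy2-2/slr-1 had 135, 406 and 144 CPM at 0 h, 109, 148 and 90.8 at 2 h, 13.3, 69.3 and 107 at 4 h, 394, 305 and 72.6 at 8 h, 638, 795 and 696 at 16 h and 114, 122 and 184 at 24 h. In slr-1 it had 345, 270.3 and 665 CPM at 0 h, 188, 139 and 137 at 2 h, 17.4, 9.32 and 137 at 4 h, 168, 96.5 and 125 at 8 h, 600.0, 354 and 359 at 16 h and 58.2, 49.98 and 60.2 at 24 h. At 4 h the 3 libraries of a genotype stood in the same order for FRO2 as for IRT1. FRO2 changed by -2.97 ± 0.74 (SE, edgeR adjusted p = 0.00217) at 4 h and -2.93 ± 0.73 (SE, edgeR adjusted p = 0.00179) at 24 h in slr-1, and both held without any 1 library. The 4 h value was -5.0 without 4 h replicate 3. FRO2 in CASP1::shy2-2/slr-1 was at -1.85 ± 0.71 (SE, edgeR adjusted p = 0.0583) at 4 h and 1.64 ± 0.70 (SE, edgeR adjusted p = 0.0772) at 16 h, neither called. The 16 h value was 2.35 (edgeR adjusted p = 0.0341) without untreated replicate 2. With libraries of no letter alone the values in CASP1::shy2-2/slr-1 were -4.10 at 4 h, which then rests on 1 library, and 1.65 (edgeR adjusted p = 0.0121) at 16 h. Across the 12 group means of log2 CPM, IRT1 and FRO2 correlated with a Pearson r of 0.997, and bHLH38 and bHLH39 with 0.905, whereas IRT1 and bHLH39 correlated with -0.277. The r of bHLH100 was 0.743 with IRT1, 0.602 with bHLH38 and 0.317 with bHLH39. For bHLH101 these values were -0.041, 0.648 and 0.591. These are descriptions, and the 2 genes of a pair were measured in the same libraries at the same depth.

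**Figure D3:**
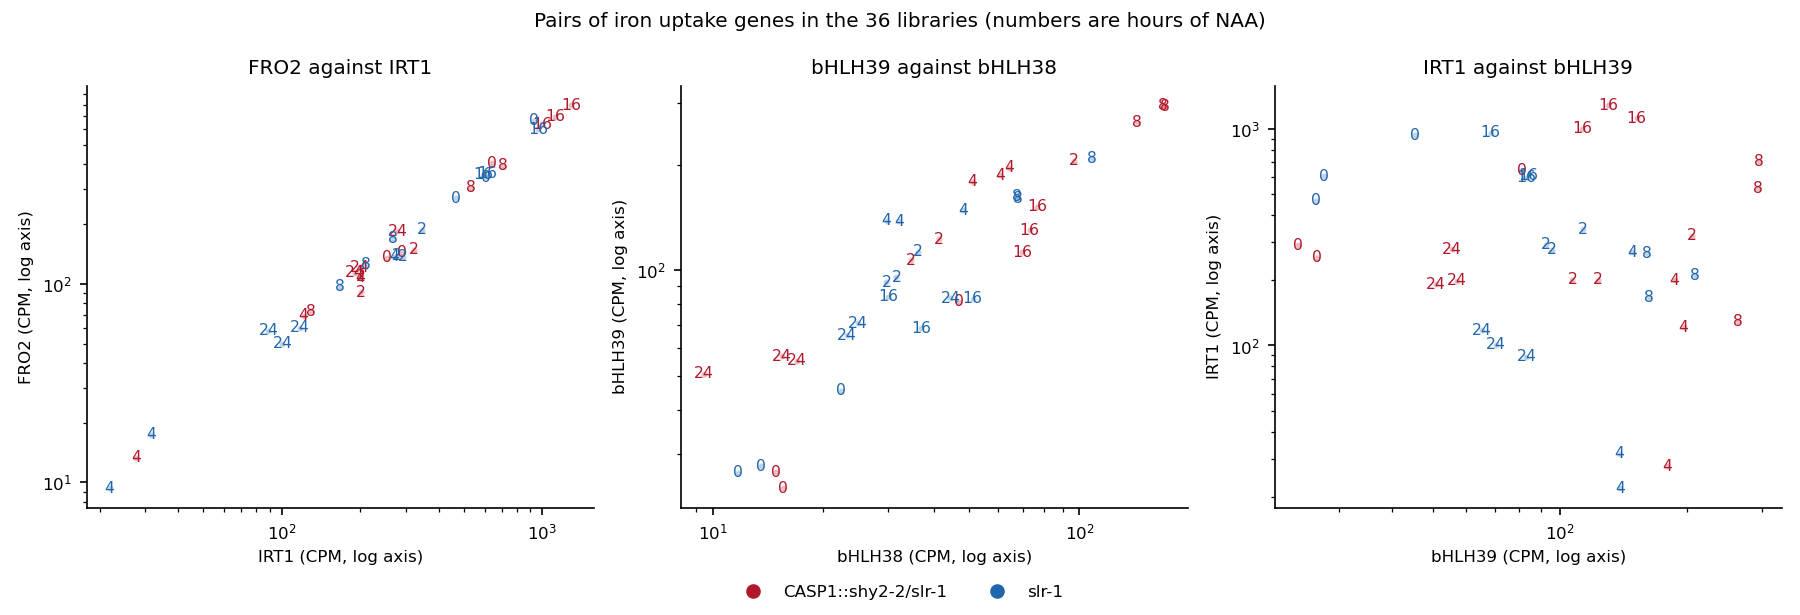
CPM of pairs of members in the 36 libraries (both axes logarithmic, numbers give the hours of NAA, CASP1::shy2-2/slr-1 in red, slr-1 in blue): FRO2 against IRT1, bHLH39 against bHLH38, and IRT1 against bHLH39. The first 2 pairs lie along a line, and in the third IRT1 ranges from 21.9 to 1287 CPM with no such line, with the 4 h libraries low in IRT1 and high in bHLH39.

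MYB72 was the scarcest member, at 0 to 8.85 CPM. MYB72 had in CASP1::shy2-2/slr-1 0.469, 2.84 and 0.534 CPM at 0 h, 0.300, 0.745 and 0.111 at 2 h, 0, 0.325 and 0.339 at 4 h, 8.85, 6.02 and 1.3 at 8 h, 5.16, 4.34 and 4.07 at 16 h and 0.386, 0.924 and 1.12 at 24 h. In slr-1 it had 0.887, 0.680 and 4.86 CPM at 0 h, 0.511, 0.341 and 0.193 at 2 h, 0.0781, 0 and 0.469 at 4 h, 0.786, 0.354 and 1.89 at 8 h, 4.45, 2.87 and 1.75 at 16 h and 0.173, 0.223 and 0.201 at 24 h. The libraries with 0 reads, 4 h replicate 1 of CASP1::shy2-2/slr-1 and 4 h replicate 2 of slr-1, allow up to 0.075 and 0.0813 CPM (3 counts in the library, counting error only). In slr-1 MYB72 was at -2.60 ± 0.93 (SE, edgeR adjusted p = 0.0258) at 2 h, -3.52 ± 1.00 (SE, edgeR adjusted p = 0.00631) at 4 h and -3.40 ± 0.97 (SE, edgeR adjusted p = 0.00504) at 24 h, all called lower. All 3 calls were lost without untreated replicate 3, the highest untreated library, where the values were -1.15, -2.06 and -1.94. The 2 h call was also lost without 2 h replicate 2 (-2.59) or 2 h replicate 3 (-2.33), and the 4 h value was -5.65 without 4 h replicate 3. In CASP1::shy2-2/slr-1 no single time was called, the 8 h value being 2.05 ± 0.78 (SE, edgeR adjusted p = 0.0773).

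F6'H1, the coumarin synthesis enzyme, was called at 1 time in each genotype. Group means in CASP1::shy2-2/slr-1 were 198 ± 114, 282 ± 85.0, 204 ± 21.8, 377 ± 69.4, 329.5 ± 25.2 and 229 ± 22.3 CPM (SD, n = 3 each) at 0, 2, 4, 8, 16 and 24 h, and in slr-1 259 ± 114, 194 ± 10.7, 211 ± 68.2, 214 ± 27.3, 248 ± 38.8 and 151 ± 10.8 CPM. The wide SD at 0 h came from the same 2 untreated libraries as in IRT1, 330.1 CPM in CASP1::shy2-2/slr-1 and 387 CPM in slr-1. It rose at 8 h in CASP1::shy2-2/slr-1 by 0.93 (edgeR adjusted p = 0.0276), lost without untreated replicate 1 (0.71), untreated replicate 3 (0.72), 8 h replicate 1 (0.86) or 8 h replicate 2 (0.85), and by 1.51 without untreated replicate 2. It fell at 24 h in slr-1 by 0.77 (edgeR adjusted p = 0.0268), lost without untreated replicate 3 (-0.35), 24 h replicate 1 (-0.74) or 24 h replicate 2 (-0.72). ABCG37, the coumarin exporter, stayed within 1 log2 unit of untreated at every time. Group means in CASP1::shy2-2/slr-1 were 825 ± 74.3, 1057 ± 95.8, 1106 ± 15.3, 1297 ± 254, 1192 ± 195 and 878 ± 39.9 CPM (SD, n = 3 each) at 0, 2, 4, 8, 16 and 24 h, and in slr-1 629.7 ± 133, 943 ± 64.1, 845 ± 279, 733 ± 76.2, 904 ± 66.8 and 855 ± 84.6 CPM. In CASP1::shy2-2/slr-1 it was higher at 8 h by 0.65 ± 0.17 (SE, edgeR adjusted p = 0.00935), lost without untreated replicate 1 (0.61) or 8 h replicate 2 (0.53). The 16 h value was 0.53 (edgeR adjusted p = 0.0198), lost without untreated replicate 1 (0.49), untreated replicate 2 (0.52) or 16 h replicate 2 (0.41). In slr-1 it was higher at 2 h by 0.58 ± 0.17 (SE, edgeR adjusted p = 0.00731), lost without untreated replicate 1 (0.45). At 16 h in slr-1 the value was 0.52 (edgeR adjusted p = 0.0151), lost without untreated replicate 1 (0.39), untreated replicate 2 (0.47) or 16 h replicate 1 (0.48). At 24 h it was 0.44 (edgeR adjusted p = 0.0328), lost without untreated replicate 1 (0.33), untreated replicate 2 (0.41) or 24 h replicate 3 (0.37). At 4 h in slr-1 it was 0.42 (edgeR adjusted p = 0.0466), a call lost in 15 of 36 fits without 1 library, among them that without 4 h replicate 3 (0.12). Per kilobase of annotated exon, the order of untreated means in CASP1::shy2-2/slr-1 was IRT1 (252 CPM per kb), ABCG37 (176), F6'H1 (135), FRO2 (80.1), FIT (45.1), bHLH39 (36.2), bHLH38 (23.9), bHLH101 (11.8), bHLH100 (4.62) and MYB72 (1.24). The order in untreated slr-1 was IRT1 (427), F6'H1 (176), FRO2 (149.7), ABCG37 (134), FIT (53.6), bHLH39 (27.4), bHLH38 (14.7), bHLH101 (9.85), bHLH100 (5.79) and MYB72 (2.07). In CASP1::shy2-2/slr-1 the libraries of every pair of neighbours in this order overlapped. In slr-1 those of F6'H1, FRO2 and ABCG37 overlapped with each other and those of bHLH100 with MYB72, while every IRT1 library (299 CPM per kb or more) lay above every F6'H1 library (263 or less).

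**Figure D4:**
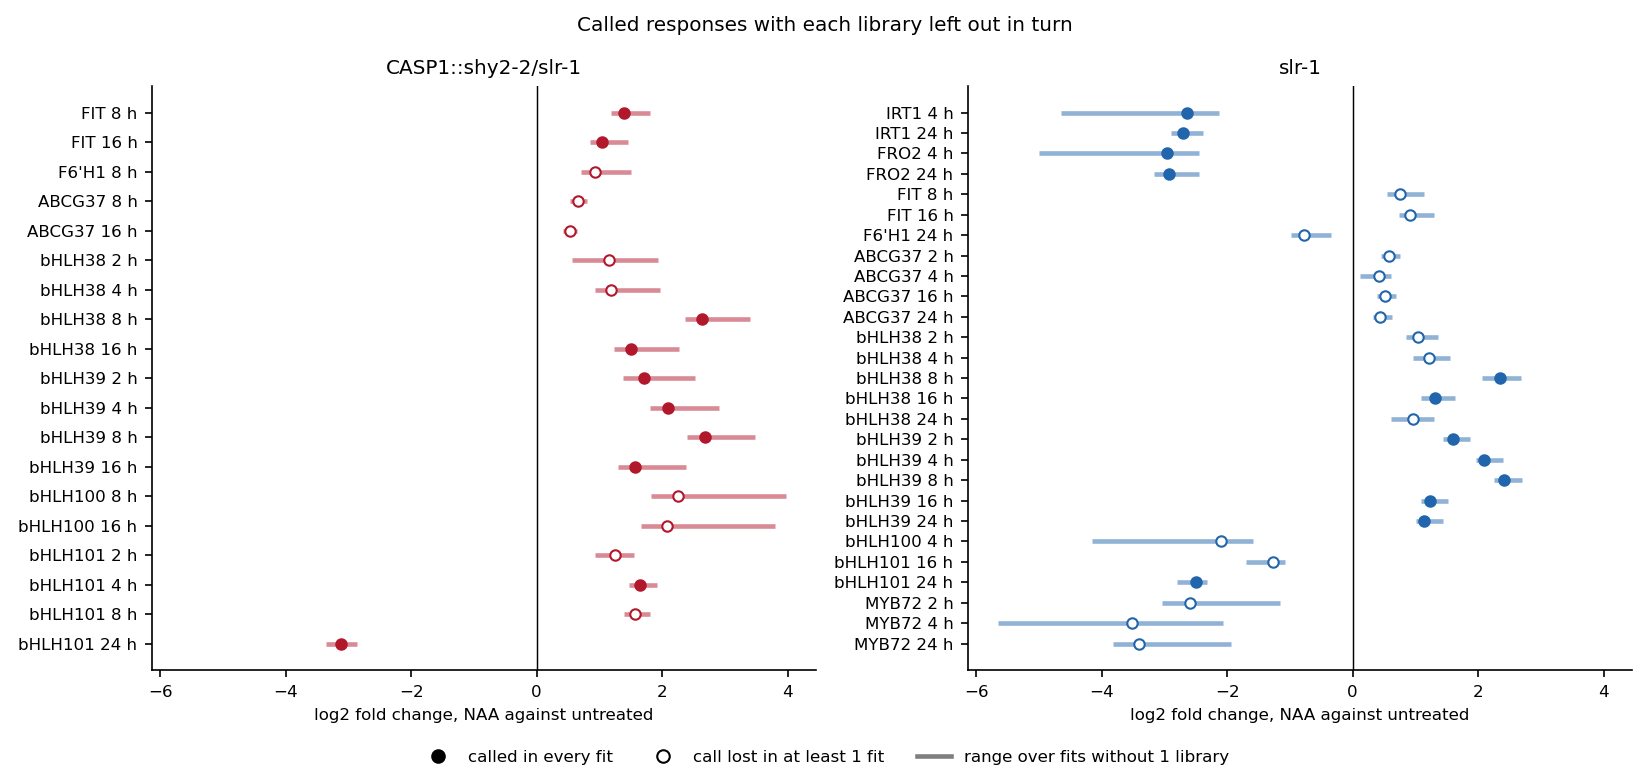
Log2 fold change of each called response of a member (points) with the range over the 36 fits that each leave out 1 library (lines), CASP1::shy2-2/slr-1 on the left and slr-1 on the right. Filled points stayed called in every fit and open points were lost in at least 1, and the filled ones include all 9 of bHLH39 and the falls of bHLH101 at 24 h.

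Between the genotypes without NAA, 0 of the 10 members were called, beside 24.9% of all tested genes. At an unadjusted p under 0.05 there was 1 member, ABCG37, at 0.39 ± 0.17 (SE, edgeR adjusted p = 0.0922), and DESeq2 called 0. IRT1 was at -0.76 ± 0.65 (SE, edgeR adjusted p = 0.414) and bHLH39 at 0.41 ± 0.29 (SE, edgeR adjusted p = 0.317), with overlapping libraries. The high untreated libraries, replicate 2 in CASP1::shy2-2/slr-1 and replicate 3 in slr-1, lay in opposite groups, and with both left out 1 member was called. Under NAA, 1, 1, 4, 1 and 1 members were called between genotypes at 2, 4, 8, 16 and 24 h, beside 18.3, 16, 14.7, 8.66 and 12.8% of all genes. bHLH101 was higher in CASP1::shy2-2/slr-1 at 2 h by 1.82 ± 0.45 (SE, edgeR adjusted p = 0.00473), the only one of its 4 calls that held without any 1 library. It was higher at 4 h by 1.26 (edgeR adjusted p = 0.0452), a call lost in 17 of 36 fits without 1 library. At 8 h the difference was 1.5 (edgeR adjusted p = 0.02), lost without CASP1::shy2-2/slr-1 8 h replicate 1 (1.37), slr-1 8 h replicate 1 (1.38) or slr-1 8 h replicate 2 (1.54). At 16 h it was 1.80 (edgeR adjusted p = 0.0112), lost without CASP1::shy2-2/slr-1 16 h replicate 3 (0.80), slr-1 16 h replicate 1 (1.63) or slr-1 16 h replicate 2 (1.62). ABCG37 was higher in CASP1::shy2-2/slr-1 at 8 h by 0.82 ± 0.17 (SE, edgeR adjusted p = 0.00151), and that call held without any 1 library. bHLH100 was higher at 8 h by 2.19 (edgeR adjusted p = 0.0323), lost without CASP1::shy2-2/slr-1 8 h replicate 1 (2.08), CASP1::shy2-2/slr-1 8 h replicate 2 (2.08), slr-1 8 h replicate 1 (2.11) or slr-1 8 h replicate 2 (1.91). MYB72 was higher at 8 h by 2.45 (edgeR adjusted p = 0.0414), lost without CASP1::shy2-2/slr-1 8 h replicate 1 (1.88), CASP1::shy2-2/slr-1 8 h replicate 2 (2.36), slr-1 2 h replicate 2 (2.45), slr-1 8 h replicate 1 (2.30) or slr-1 8 h replicate 2 (2.01). bHLH38 was lower in CASP1::shy2-2/slr-1 at 24 h, at -1.14 (edgeR adjusted p = 0.0495), lost in 24 of 36 such fits. At 16 h 9 of the 10 members, all but FIT, were higher in CASP1::shy2-2/slr-1 in each of the 3 pairs of libraries with the same replicate number. The share of all genes higher in every pair was not computed, so whether 9 of 10 is unusual is not known. The replicate numbers paired the libraries at 16 h by their correlation, and in a fit of the 6 libraries of 16 h with this block, chosen after seeing the data, 4 members were called beside 12.3% of 20052 genes. They were bHLH101 at 1.61 ± 0.23 (SE, edgeR adjusted p = 0.0103), bHLH100 at 1.60 ± 0.11 (SE, edgeR adjusted p = 0.000143), bHLH39 at 0.74 ± 0.08 (SE, edgeR adjusted p = 0.00119) and bHLH38 at 0.93 ± 0.16 (SE, edgeR adjusted p = 0.022). The same fit with no block called bHLH39 and bHLH100 (2 members, beside 3.28% of genes). Replicate 3 carried the letter n in both genotypes. The response to NAA itself differed between genotypes in 0, 0, 0, 0 and 1 members, beside 15.6, 11.9, 11.6, 9.44 and 13.8% of all genes. At an unadjusted p under 0.05 there were 2, 0, 3, 1 and 4, and DESeq2 called 0, 0, 1, 0 and 1. The 1 call was bHLH38 at 24 h, whose response in CASP1::shy2-2/slr-1 minus that in slr-1 was -1.85 ± 0.54 (SE, edgeR adjusted p = 0.0226). It was lost without CASP1::shy2-2/slr-1 untreated replicate 2 (-1.08), CASP1::shy2-2/slr-1 24 h replicate 1 (-1.63), slr-1 untreated replicate 1 (-1.75), slr-1 untreated replicate 2 (-1.68) or slr-1 24 h replicate 1 (-1.5). Over the 5 times together bHLH38 was also the 1 member called (edgeR adjusted p = 0.0256), beside 26.4% of all genes, with 2 at an unadjusted p under 0.05 and 2 by DESeq2. For IRT1 and FRO2 the responses at 24 h differed by 1.88 ± 0.93 (SE, edgeR adjusted p = 0.179) and 2.22 ± 0.98 (SE, edgeR adjusted p = 0.129), not called. With libraries of no letter alone these differences were 1.88 (edgeR adjusted p = 0.0131) and 2.22 (edgeR adjusted p = 0.0191). No library of 0 or 24 h had a letter, so the same libraries were compared and the values did not move. The lower p-values came with other groups having fewer libraries in the fit and are no check on the letter. Left out alone, untreated replicate 2 of CASP1::shy2-2/slr-1 brought 30 new calls and lost 3 over all comparisons. Among the new ones were differences in the response of bHLH39 at 2, 8 and 16 h (0.93, 1.07 and 1.13). This library had the highest member sum of its group (2439 CPM), and the high untreated library of slr-1 (2966 CPM) stayed in. These differences thus rest on leaving out the high untreated library of 1 genotype only.

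Other regulators of iron deficiency, 17 tested genes, were called in numbers of 5, 5, 5, 4 and 1 higher and 0, 2, 3, 4 and 5 lower at the 5 times in CASP1::shy2-2/slr-1. The numbers in slr-1 were 6, 6, 5, 4 and 6 higher and 2, 5, 2, 5 and 8 lower. Of all genes, 7.79 to 21.6% were higher and 7.15 to 21.1% lower in CASP1::shy2-2/slr-1, and 17.9 to 23.3% and 17.8 to 26.8% in slr-1. The share higher was farthest from that of all genes at 8 h in CASP1::shy2-2/slr-1 (29.4 against 7.79%), and that lower at 24 h in slr-1 (47.1 against 26.8%), while at 16 h in slr-1 23.5% were higher beside 22.4%. BTS, an E3 ligase that restrains iron uptake, had 146, 184 and 169.8 CPM at 0 h, 338, 406 and 418 at 8 h and 165, 164.1 and 163.8 at 24 h in CASP1::shy2-2/slr-1. In slr-1 BTS had 106, 137 and 116 CPM at 0 h, 245, 243 and 294 at 8 h and 260.3, 216 and 237 at 24 h. It was thus back at its untreated level at 24 h in CASP1::shy2-2/slr-1 and not in slr-1, and the difference in response at 24 h was -1.01 ± 0.18 (SE, edgeR adjusted p = 0.000229). IMA1 and IMA2, genes for small peptides that promote iron uptake, behaved alike. IMA1 had 2.39, 7.19 and 2.03 CPM at 0 h, 18.0, 17.1 and 23.6 at 8 h and 2.70, 3.07 and 2.26 at 24 h in CASP1::shy2-2/slr-1. In slr-1 IMA1 had 0.963, 1.24 and 2.4 CPM at 0 h, 18.0, 18.8 and 24.1 at 8 h and 22.1, 12.6 and 10.2 at 24 h. The difference in response at 24 h was -3.83 ± 0.61 (SE, edgeR adjusted p = 7.03e-05) for IMA1 and -2.87 ± 0.53 (SE, edgeR adjusted p = 0.000474) for IMA2. The 24 h differences in response of BTS, IMA1 and IMA2 had the sign of that of bHLH38. They held without any 1 library, where they ranged over -0.93 to -1.13, -3.00 to -4.31 and -2.19 to -3.41. Of the 17 regulators only these 3 were called in this difference, beside 13.8% of all genes, and the median over the 17 was 0.06. PYE, a bHLH repressor in the same network, rose at 8 h by 1.10 ± 0.16 (SE, edgeR adjusted p = 2.15e-05) in CASP1::shy2-2/slr-1 and 1.00 ± 0.16 (SE, edgeR adjusted p = 3.56e-05) in slr-1. bHLH19 and bHLH20, which are known to promote the degradation of FIT, were lower at 24 h, at -1.28 and -0.86 in CASP1::shy2-2/slr-1 and -1.63 and -1.42 in slr-1 on the log2 scale, all called. Earlier in slr-1 they were higher. bHLH20 was at 0.96 at 4 h, where the responses differed by -0.97 between genotypes. bHLH19 was at 0.85 at 2 h and 0.94 at 4 h, calls lost in 3 and 2 of the 36 fits without 1 library.

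Of 15 tested genes of iron transport and chelation, 3, 1, 6, 9 and 3 were higher and 6, 6, 1, 1 and 3 lower at the 5 times in CASP1::shy2-2/slr-1. The numbers in slr-1 were 1, 2, 2, 4 and 4 higher and 5, 6, 1, 0 and 5 lower. In CASP1::shy2-2/slr-1 40% of the list was higher at 8 h and 60% at 16 h, beside 7.79 and 15.8% of all genes, and 40% was lower at 4 h beside 11.9%. At 24 h the list was near all genes in CASP1::shy2-2/slr-1, with 20% in either direction beside 21.6% higher and 21.1% lower, and slr-1 was near them at 16 and 24 h in higher genes (26.7% beside 22.4 and 23.3%). OPT3, which loads iron into the phloem, had 63.5, 139 and 69.1 CPM at 0 h, 397, 477 and 481 at 8 h and 118, 115 and 96.2 at 24 h in CASP1::shy2-2/slr-1. In slr-1 OPT3 had 45.3, 60.1 and 65.2 CPM at 0 h, 312, 326 and 519 at 8 h and 260.1, 185 and 205 at 24 h. Its rise at 8 h was 2.32 ± 0.26 (SE, edgeR adjusted p = 4.8e-07) in CASP1::shy2-2/slr-1 and 2.76 ± 0.27 (SE, edgeR adjusted p = 1.44e-08) in slr-1, and its responses at 24 h differed by -1.65 ± 0.35 (SE, edgeR adjusted p = 0.00205). The untreated level of OPT3 was higher in CASP1::shy2-2/slr-1, at 0.67, which is part of that difference. This untreated call was lost in 27 of the 36 fits without 1 library. NAS1, a nicotianamine synthase, was lower at 4 h, at -2.1 ± 0.32 (SE, edgeR adjusted p = 2.3e-05) in CASP1::shy2-2/slr-1 and -1.59 ± 0.31 (SE, edgeR adjusted p = 0.00021) in slr-1 (-2.4 without 4 h replicate 3). It was higher at 16 h in CASP1::shy2-2/slr-1, at 1.10 ± 0.31 (SE, edgeR adjusted p = 0.00806). NAS2, its paralog, was at 1.65 ± 0.31 (SE, edgeR adjusted p = 0.000249) in CASP1::shy2-2/slr-1 and 1.33 ± 0.31 (SE, edgeR adjusted p = 0.00124) in slr-1 at 16 h. NRAMP1, a further importer of iron and manganese, fell at 4 h in both genotypes (-0.94 in CASP1::shy2-2/slr-1 and -1.7 in slr-1). FPN2, which moves metal into the vacuole, was higher at 16 h in CASP1::shy2-2/slr-1, at 1.68 ± 0.33 (SE, edgeR adjusted p = 0.000409), and lower at 8 h in slr-1, at -1.45 ± 0.33 (SE, edgeR adjusted p = 0.00142). The FPN2 responses at 8 h differed by 2.34 ± 0.47 (SE, edgeR adjusted p = 0.00234). Before NAA the FPN2 level was already lower in CASP1::shy2-2/slr-1, at -1.73 on the log2 scale between untreated genotypes. This untreated difference is part of the difference in response. FRO3, a mitochondrial ferric reductase, rose at 8 h in CASP1::shy2-2/slr-1 by 1.13 and was lower at 24 h there (-0.76). YSL1 was near the limit of detection, at 0.0257, 0.135 and 0.0254 CPM in 24 h and 0.962, 1.06 and 1.40 CPM in untreated libraries of CASP1::shy2-2/slr-1. Iron storage genes, 9 tested, were called 3, 1, 1, 6 and 2 higher and 3, 5, 5, 0 and 3 lower in CASP1::shy2-2/slr-1, and 0, 1, 1, 2 and 1 higher and 5, 7, 7, 3 and 5 lower in slr-1. At 8 h the share lower was 55.6% beside 7.15% of all genes in CASP1::shy2-2/slr-1 and 77.8% beside 17.8% in slr-1, and at 16 h 66.7% were higher in CASP1::shy2-2/slr-1 beside 15.8%. The share higher was near that of all genes at 4, 8 and 24 h in CASP1::shy2-2/slr-1 (11.1, 11.1 and 22.2% beside 10.6, 7.79 and 21.6%). FER1, the ferritin gene, had 70.4, 116 and 72.1 CPM at 0 h, 22.4, 20.8 and 11.4 at 8 h and 285, 295 and 208 at 16 h in CASP1::shy2-2/slr-1. In slr-1 FER1 had 206, 146 and 166 CPM at 0 h, 23.8, 23 and 13.4 at 8 h and 157, 106 and 137 at 16 h. FER1 was lowest at 8 h, when bHLH38 and bHLH39 were highest, at -2.24 ± 0.24 (SE, edgeR adjusted p = 2.12e-07) in CASP1::shy2-2/slr-1 and -3.10 ± 0.25 (SE, edgeR adjusted p = 8.29e-10) in slr-1. At 16 h it was above untreated in CASP1::shy2-2/slr-1, at 1.61 ± 0.23 (SE, edgeR adjusted p = 8.49e-06), and not called in slr-1. The responses at 16 h differed by 1.98 ± 0.32 (SE, edgeR adjusted p = 0.000192). FER4, a ferritin of plastids and mitochondria, fell at 8 h in both (-1.61 in CASP1::shy2-2/slr-1 and -1.98 in slr-1). VTL2, a vacuolar iron transporter-like gene, had 6.87, 5.25 and 7.31 CPM at 24 h against 10.2, 17 and 11.5 untreated in CASP1::shy2-2/slr-1, and 3.39, 3.00 and 3.82 CPM at 24 h against 49.0, 39.3 and 26.2 untreated in slr-1. It was lower in untreated CASP1::shy2-2/slr-1 than in untreated slr-1, at -1.56 ± 0.28 (SE, edgeR adjusted p = 0.000212), and its response differed at all 5 times, by 1.89, 2.33, 1.71, 2.66 and 2.49. The VTL5 responses at 24 h differed by 2.4 ± 0.43 (SE, edgeR adjusted p = 3e-04). Its untreated level was likewise lower in CASP1::shy2-2/slr-1, at -1.39 between the genotypes, which is part of that difference. NRAMP4, a vacuolar iron exporter, rose at 8 h in both (1.24 in CASP1::shy2-2/slr-1 and 0.80 in slr-1), and its relative NRAMP3 fell at 8 h in both (-1.28 and -0.98 in CASP1::shy2-2/slr-1 and slr-1). Of 4 other tested coumarin genes, 0, 1, 0, 1 and 0 were higher and 0, 1, 0, 0 and 0 lower in CASP1::shy2-2/slr-1, and 1, 1, 0, 0 and 0 higher and 1, 2, 0, 0 and 3 lower in slr-1. With 4 genes a single call is 25%, beside 7.15 to 26.8% of all genes, so only the 3 lower at 24 h in slr-1 (75% beside 26.8%) and the 2 lower at 4 h in slr-1 (50% beside 21.8%) stood above that share by more than 1 gene. Of the 3 calls at 24 h only that of S8H held without any 1 library. Those of CYP82C4 and BGLU42 were lost in 27 and 1 of the 36 fits that each left out 1 library. S8H, which makes fraxetin, had 0.569, 0.974 and 1.13 CPM at 24 h against 17.5, 20.4 and 38.7 CPM untreated in slr-1, a change of -4.83 ± 0.94 (SE, edgeR adjusted p = 0.000153). CYP82C4, which makes sideretin, fell at 4 h in slr-1, at -3.60 (-6.44 without 4 h replicate 3). CCoAOMT1, an O-methyltransferase, was higher at 2 h in slr-1 (0.85), and the glucosidase gene BGLU42 was lower at 2 h in slr-1, at -0.88 (-0.43 without untreated replicate 3). Each response or difference of these 4 lists given here with its log2 value held without any 1 library, unless a lost call is stated. The fall of VTL2 at 24 h in CASP1::shy2-2/slr-1 was lost in 1 such fit, without untreated replicate 2 (-0.75).

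**Figure D5:**
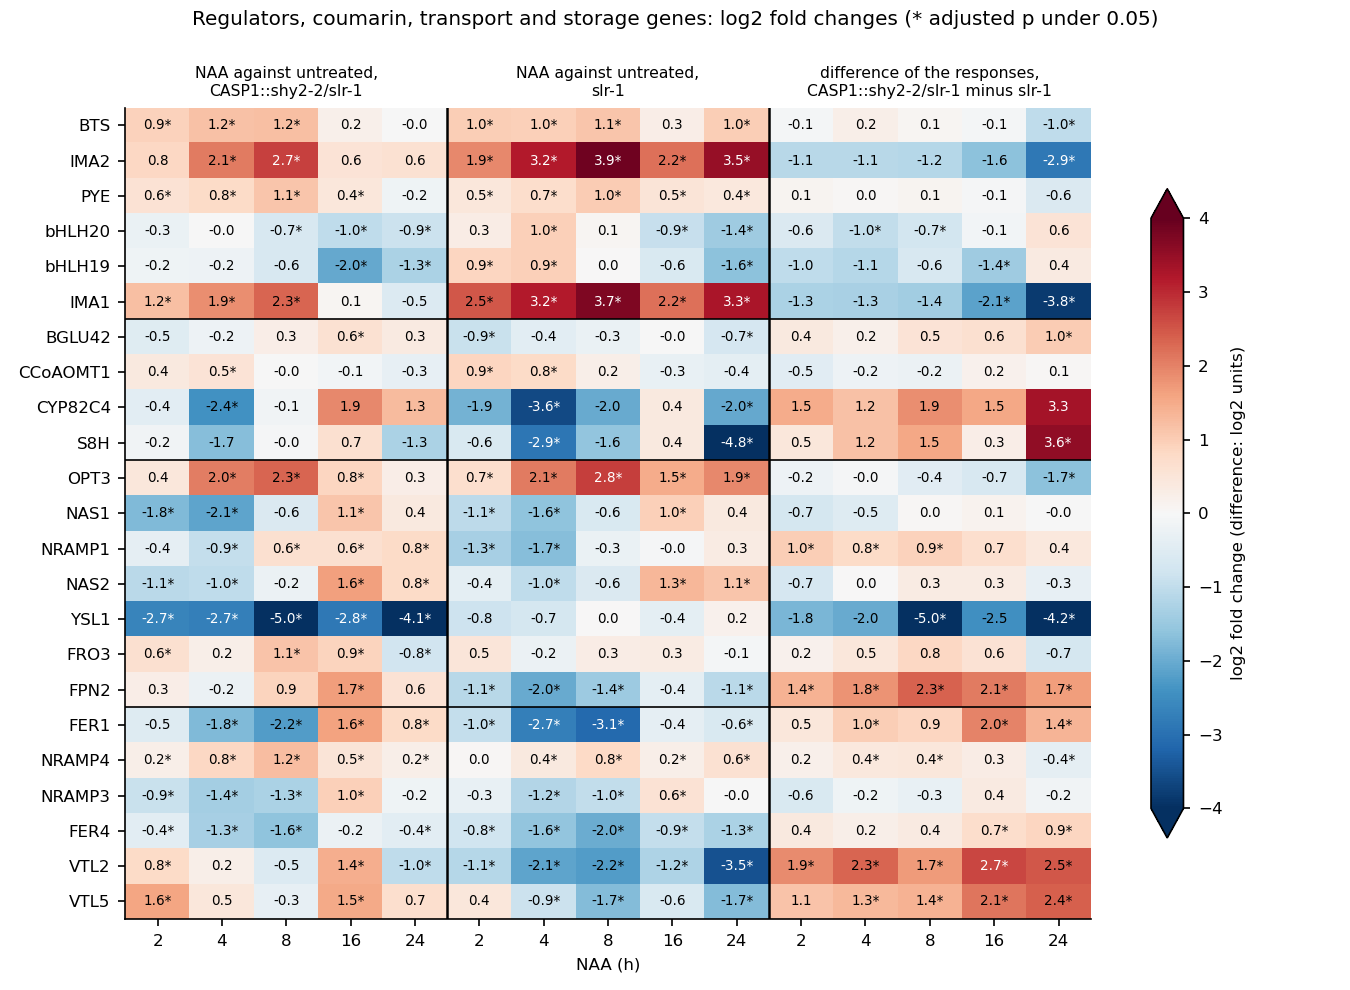
Log2 fold change (colour) of 23 genes outside the 10 members, grouped as regulators, coumarin pathway, transport and storage, by hours of NAA in CASP1::shy2-2/slr-1 (left), in slr-1 (middle) and as the difference between the responses (right), with an asterisk where called. BTS, IMA1, IMA2 and OPT3 are red at 4 and 8 h in both genotypes and blue at 24 h in the right panel, and FER1 and FER4 are blue at 4 and 8 h.

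Genes with the most similar course were sought over the 12 group means of log2 CPM among 17179 genes, which share libraries and depth with the members. Nearest to IRT1 came GRF11, a 14-3-3 protein gene (Pearson r 0.96, Spearman rho 0.96), AT5G38820 (0.95 and 0.91) and AT4G19370 (0.94 and 0.93). PYE was nearest to bHLH39 (0.96 and 0.97), before ORG1 (0.93 and 0.92) and the Aux/IAA gene IAA30 (0.92 and 0.85). For MYB72 the nearest was its paralog MYB10 (0.94 and 0.94), then AT5G12050 (0.93 and 0.94) and the histone gene HTA6 (0.92 and 0.90). F6'H1 had lower maxima: EDA32 (0.88 and 0.78), AT5G46780 (0.87 and 0.82) and AT3G06590 (0.87 and 0.78). GRF11 had 5.80, 14.0 and 6.31 CPM at 0 h, 1.35, 6.62 and 7.14 at 4 h and 18.7, 21.7 and 34.4 at 16 h in CASP1::shy2-2/slr-1. In slr-1 it had 14.3, 10.9 and 20.1 CPM at 0 h, 1.61, 1.25 and 6.67 at 4 h and 16.2, 11.1 and 13.9 at 16 h. GRF11 was picked for its likeness to IRT1, so these values describe it and support nothing. Its 4 h and untreated libraries overlapped in CASP1::shy2-2/slr-1 and did not in slr-1.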

How the data were processed

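The authors deposited 1 raw read count per gene and library, made per the submitters' processing notes with cutadapt 1.3, STAR 2.4.0a and HTSeq 0.6.1 on TAIR10, without stated settings. Per the labels, libraries were stranded, made from mRNA and read as single reads. The 5 summary rows, which held 5.28 to 11.2% of a library's reads, were dropped. 6182 of the 32678 genes had no read. CPM were computed from these counts with library sizes scaled by TMM.

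Testing used edgeR 4.0.16 with limma 3.58.1 in R 4.3.3. After filterByExpr, which removed 11739 genes, each of the 12 groups got its own mean and genes were tested by robust quasi-likelihood F-tests on 24 residual degrees of freedom. The SE is the log2 fold change divided by the square root of F. Each NAA time was tested against the untreated libraries of its genotype, as were the difference of these responses between genotypes, the genotypes at each time, and all 5 times together. Called means a Benjamini-Hochberg adjusted p under 0.05 over all 20939 genes. The procedure was tested on simulated data. Counting error is relatively largest at low counts, and thus for MYB72 and bHLH100, whose counts went down to 0 and 10 reads.

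Named are all 10 members, in each wider list up to 4 genes with the smallest p over the 5 times in either genotype and up to 4 in their difference, and the 3 genes most like IRT1, bHLH39, F6'H1 and MYB72. The members and lists were chosen with earlier results of these data known. Whether equal replicate numbers pair the libraries was checked by the correlation of deviations from group means: all pairs were over 0.1 in 1 of 16 comparisons, that of the genotypes at 16 h (0.518, 0.227 and 0.656), where a blocked fit is given beside the result, and the numbers were not used as pairs elsewhere. Of the 32678 genes, 31912 were found in the RefSeq table of TAIR10.1, used for positions and promoters only. Alternatives were other scalings and filters, a replicate block, the library letter, fewer libraries, stricter thresholds and DESeq2 1.42.0.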

Additional observations from a re-analysis of the deposited data

Results flagged for a closer look

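The response of bHLH38 at 24 h of NAA stood out because a test of the difference itself found unlike responses in the 2 genotypes. The log2 response of CASP1::shy2-2/slr-1 minus that of slr-1 was -1.85 ± 0.54 (SE, edgeR adjusted p = 0.0226), with 9.44, 15.4 and 17 CPM in 24 h and 14.9, 47.1 and 15.5 CPM in untreated CASP1::shy2-2/slr-1 libraries, against 44.5, 24.9 and 23.2 CPM in 24 h and 13.5, 11.7 and 22.4 CPM in untreated slr-1 libraries. The value was -1.08 (edgeR adjusted p = 0.136) without untreated replicate 2 of CASP1::shy2-2/slr-1.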

How the results depend on the processing

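Of 55 called responses and differences of members, 54 stayed called with RLE size factors, 54 with total count scaling, 50 with no filter, 50 of the 51 with a value at a mean CPM of at least 5, 45 with the letter n as a term, 33 of 47 with libraries of no letter alone, 28 when only the groups compared entered the fit, 29 at a threshold of 0.01, 43 with a log2 change of at least 1 in addition, 55 with DESeq2, and 49 each without 3 libraries that stood apart (untreated replicate 3 of slr-1, and 2 h replicate 2 and 8 h replicate 3 of CASP1::shy2-2/slr-1) or without the 2 untreated libraries with high iron uptake genes, an alternative chosen after seeing the data. No value of a called member changed sign in any of these. The 2 h groups could not be fitted with libraries of no letter alone, and with the letter as a term their values rest on its effect at other times. In the fit of libraries of no letter, the 4 and 8 h groups of CASP1::shy2-2/slr-1 held 1 library each. At 0 and 24 h no library had a letter, so there the fit of libraries of no letter compared the same libraries.

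With the replicate number as a replicate block, all 55 calls were kept, and the members whose responses differed between genotypes over the 5 times numbered 2 in place of 1. The 1 member called between genotypes at 16 h stayed 1 under this block and became 4 with the block, and 2 with no block, in fits of the 16 h libraries alone, chosen after seeing the data. Of 209 calls of named genes outside the members, 203 were kept under this block.

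The 18 higher member and time pairs in CASP1::shy2-2/slr-1 became 8 with only the groups compared, 10 at 0.01 and 30 without the 2 untreated libraries. The 1 lower pair became 9 with the letter as a term, 4 with no letter alone, 5 with DESeq2 and 6 without the 3 libraries. In slr-1 the 16 higher pairs became 9 with no letter alone, 9 at 0.01 and 9 with the log2 minimum, and the 11 lower pairs became 7 at 0.01 and 6 without the 3 or the 2 libraries. The 1 difference in response became 2 at the CPM minimum, 3 with the letter as a term, 3 with no letter alone, 3 with only the groups compared, 0 at 0.01, 2 with DESeq2, 2 without the 3 and 8 without the 2 libraries. Over 5 times it became 2 with the letter as a term, 0 at 0.01, 2 with DESeq2, 3 without the 3 and 4 without the 2 libraries. The 0 members between untreated genotypes became 1 with no letter alone, 2 without the 3 and 1 without the 2 libraries, and the 8 pairs at NAA times became 5 with no filter, 15 with only the groups compared, 2 at 0.01 and 15 without the 2 libraries. The causes were not tested beyond the smaller number of libraries or calls that each alternative leaves.

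Leaving out each library in turn gave 9 to 28 higher and 1 to 4 lower pairs in CASP1::shy2-2/slr-1, 7 to 18 higher and 6 to 14 lower in slr-1, 0 to 12 differences in response (0 to 6 over 5 times), 0 to 1 between untreated genotypes, 3 to 13 at NAA times, and 9 to 10 and 6 to 10 members over 5 times in CASP1::shy2-2/slr-1 and slr-1. Depth limits MYB72 and bHLH100 most.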
